A study of Homo sapiens with 12 samples.

Results

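Matrix metalloproteinases (MMPs) are secreted or membrane-bound zinc proteases that cut collagens and other extracellular matrix proteins, and tissue inhibitors of metalloproteinases (TIMPs) bind and block them. The genes described here are MMP1, MMP2, MMP3, MMP7, MMP9, MMP14, TIMP1, TIMP2 and TIMP3. These 9 genes were taken by symbol from a table of 17085 genes, with no threshold on their values. All 9 were in the table, and 8 of them had enough counts to be tested among 12841 tested genes. TIMP3 was too weakly counted to test.

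The RNA came from 786-O, a human clear cell renal carcinoma line without functional VHL. The cells were exposed for 24 h to DMSO (the vehicle), everolimus (an inhibitor of mTOR complex 1), SGI-1027 (a quinoline compound first described as a DNA methyltransferase inhibitor) or everolimus plus SGI-1027. Each of these 4 groups held 3 libraries, so there were 12 in all. The SGI-1027 dose was 1.5 µM alone and in the combination. Everolimus was given at 5 µM in the combination, while for everolimus alone the labels state 5 µM in 1 field and 10 µM in another. The study's methods give 5 µM for everolimus. All groups are 1 cell line, and no source says whether the 3 libraries in each group stem from independent cultures, so the p values measure the spread between these libraries only.

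MMPs are made as inactive proenzymes and are switched on when the propeptide is removed, by plasmin, by furin-like convertases or by other MMPs. MMP14 at the cell surface activates pro-MMP2 with TIMP2 as the bridge between them, so TIMP2 can both support and block the same reaction. In tumour tissue these enzymes are known for matrix remodelling around invading cells and new vessels. RNA levels give neither the amount nor the activity of the proteins.

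TIMP3 is widely studied as a gene whose CpG-rich promoter can be methylated in tumours, and SGI-1027 was given to these cells, so the 250 bases before its start are shown beside those of TIMP1, which was among the most abundant transcripts. The sequences are from RefSeq (GRCh38.p14), 5′ to 3′ on the gene's strand, and CpG dinucleotides are in capitals. TIMP3 lies at chr22:32801455-32801704 on the plus strand and TIMP1 at chrX:47582186-47582435 on the plus strand.
TIMP3: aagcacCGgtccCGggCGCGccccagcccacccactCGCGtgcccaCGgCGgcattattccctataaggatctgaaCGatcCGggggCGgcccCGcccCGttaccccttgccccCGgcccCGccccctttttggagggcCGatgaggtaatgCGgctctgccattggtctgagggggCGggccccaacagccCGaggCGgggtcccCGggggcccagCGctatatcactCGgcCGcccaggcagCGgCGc
TIMP1: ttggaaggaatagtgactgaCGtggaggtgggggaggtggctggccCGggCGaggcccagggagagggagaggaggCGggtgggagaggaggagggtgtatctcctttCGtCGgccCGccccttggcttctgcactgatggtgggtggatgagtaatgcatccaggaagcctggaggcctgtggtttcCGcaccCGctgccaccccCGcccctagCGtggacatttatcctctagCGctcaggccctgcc
The TIMP3 stretch held 26 CpG dinucleotides and the TIMP1 stretch held 12. Across the 27305 RefSeq promoters the median was 11, and 19.2% held at least as many as TIMP3. DNA methylation was not measured in these samples.

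Of the 8 tested genes among the 9 described here, MMP7 was the 1 that was lower with the combination than with DMSO. Its promoter is shown with the letters of the AP-1-type motif TGANTCA in capitals, because AP-1 factors are known regulators of MMP genes. It lies at chr11:102530748-102530997 on the minus strand.
MMP7: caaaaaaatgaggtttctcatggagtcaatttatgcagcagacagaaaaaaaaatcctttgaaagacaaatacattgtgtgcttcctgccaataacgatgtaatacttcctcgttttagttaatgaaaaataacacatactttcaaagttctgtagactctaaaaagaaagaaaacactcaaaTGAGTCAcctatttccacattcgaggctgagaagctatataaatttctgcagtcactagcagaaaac
The motif, which reads the same on both strands, occurred once, with its first base at position -67 from the start. It was found in 6.60% of all RefSeq promoters over the same 250 bases. It was not found in those of MMP14, TIMP1 or TIMP3. Only exact matches to TGANTCA were searched, so variants of the motif would be missed. Of the 9 genes, these 4 had an entry in the RefSeq promoter table. No entry was matched for MMP1, MMP2, MMP3, MMP9 or TIMP2.

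Each library held between 37046231 and 41516976 gene counts. Counts within a group differed most for SGI-1027 library 3 (mean chi-square per gene of 16.4 and 16.1 against the other two SGI-1027 libraries, which differed from each other by 3.04). DMSO library 1 also stood apart from its group (10.1 and 12.9, against 3.56 between DMSO libraries 2 and 3). SGI-1027 library 3 had the highest FPKM of its group for 7 of the 8 tested genes, so results that changed without it are given both ways. PAX8, a marker of renal epithelium, had 11721 to 19014 counts per library, while the leukocyte markers PTPRC and CD3E had at most 1. The fibroblast and pericyte genes LUM and PDGFRB had 7 to 36 and 3 to 48 counts, and the endothelial genes PECAM1, CDH5 and VWF had at most 12.

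The genes fell into an abundant and a scarce class. Levels between genes were compared as FPKM (fragments per kilobase of gene length, scaled to library size), the unit that accounts for gene length. In DMSO, TIMP1 averaged 189 FPKM ± 3.33 (SD, n = 3), MMP14 159 ± 7.53, MMP2 114 ± 4.27 and TIMP2 53.9 ± 2.48. These 4 genes ranked 275th, 347th, 511th and 1167th among the 17085 genes. MMP7, MMP9 and MMP1 averaged 3.29 ± 0.506, 3.17 ± 0.173 and 3.01 ± 0.451 FPKM, and these neighbours did not differ beyond their spread. MMP3 averaged 0.208 ± 0.0717 FPKM and TIMP3 0.0312 ± 0.00958 FPKM.

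**Figure D1:**
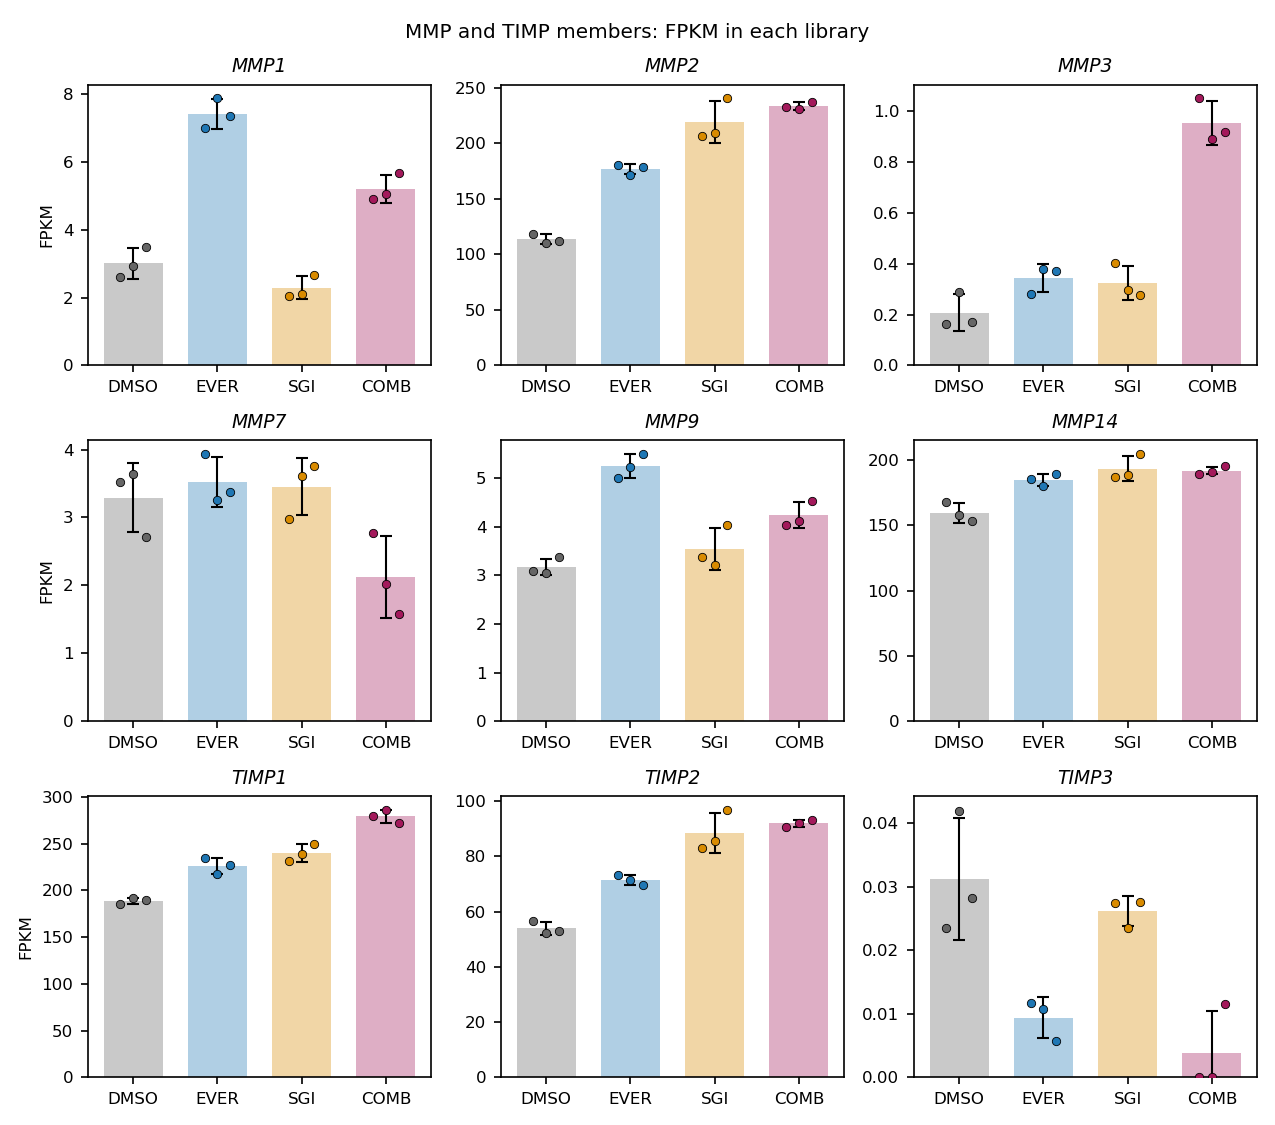
FPKM of each of the 9 genes (vertical axis, linear, starting at 0, with its own range in each panel) in the 4 groups, DMSO, everolimus (EVER), SGI-1027 (SGI) and the combination (COMB). Points are libraries, bars are means and error bars are the SD of 3 libraries. MMP1 was highest with everolimus, MMP2 and TIMP2 were high in both groups given SGI-1027, MMP3 was highest with the combination, and the TIMP3 panel ends near 0.04 FPKM.

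MMP1, the interstitial collagenase that cuts fibrillar collagens, moved in opposite directions with the single drugs. Its FPKM in the 3 DMSO libraries was 2.60, 2.95 and 3.50. It was 7.00, 7.90 and 7.37 with everolimus. It was 2.06, 2.12 and 2.68 with SGI-1027, and 4.91, 5.05 and 5.69 with the combination. The everolimus libraries were all above the combination libraries, which were all above the DMSO libraries, while the SGI-1027 and DMSO libraries overlapped. In bulk RNA, fewer cells expressing a gene and less RNA per cell cannot be told apart, here and for each gene that follows. Against DMSO, MMP1 rose 2.45-fold with everolimus (log2 fold change 1.29, SE 0.12, edgeR quasi-likelihood test, Benjamini-Hochberg adjusted p = 3.45e-08) and 1.70-fold with the combination (0.77, SE 0.12, edgeR adjusted p = 1.52e-05). With SGI-1027 it fell by 0.40 on the log2 scale (SE 0.13, edgeR adjusted p = 0.0116). That last call was lost without DMSO library 3 (log2 fold change -0.27, edgeR adjusted p = 0.0871) or without SGI-1027 library 1 (-0.32, 0.0564), and without SGI-1027 library 3 the value was -0.53. The combination was 0.52 log2 units below everolimus alone (log2 fold change -0.52, edgeR adjusted p = 0.000887) and 1.17 above SGI-1027 alone (edgeR adjusted p = 1.58e-06).

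MMP3, stromelysin-1, cleaves proteoglycans and can activate other pro-MMPs, and it was the gene with the largest fold change of the 8 with the combination. Counts were 11, 22 and 12 in DMSO, 19, 28 and 26 with everolimus, 29, 20 and 20 with SGI-1027, and 73, 64 and 63 with the combination. Every combination library was above every other library, while the other 3 groups overlapped one another. MMP3 rose 4.45-fold with the combination against DMSO (log2 fold change 2.15, SE 0.28, edgeR adjusted p = 1.93e-06), by 1.45 on the log2 scale against everolimus (edgeR adjusted p = 0.000194) and by 1.52 against SGI-1027 (edgeR adjusted p = 0.000349). The single drugs gave log2 fold changes of 0.70 (everolimus, edgeR adjusted p = 0.0639) and 0.63 (SGI-1027, edgeR adjusted p = 0.0902). Both passed the threshold without DMSO library 2, which held 22 counts against 11 and 12 in the other two (1.03, edgeR adjusted p = 0.0205, and 0.96, edgeR adjusted p = 0.0271).

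MMP7, matrilysin, is a small MMP without the hemopexin domain and is typical of epithelial cells. Its FPKM was 3.52, 3.64 and 2.71 in DMSO, 3.94, 3.25 and 3.38 with everolimus, and 2.98, 3.61 and 3.76 with SGI-1027. It was 2.77, 2.02 and 1.59 with the combination. The highest combination library was just above the lowest DMSO library, so these groups overlapped, whereas the combination libraries were below all libraries of either single drug. MMP7 fell by 0.65 on the log2 scale with the combination against DMSO (SE 0.19, edgeR adjusted p = 0.00564). It fell by 0.74 against everolimus (edgeR adjusted p = 0.00414) and by 0.72 against SGI-1027 (edgeR adjusted p = 0.0107). The last of these was not called without combination library 3 (log2 fold change -0.55, edgeR adjusted p = 0.067). The single drugs gave 0.09 (95% confidence interval -0.29 to 0.47) for everolimus and 0.07 (-0.31 to 0.45) for SGI-1027, which did not pass the test.

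MMP1, MMP3 and MMP7 belong to a cluster of MMP genes on chromosome 11, and their neighbours were weakly counted. MMP10 (stromelysin-2) had 2, 0 and 2 counts in DMSO, 10, 12 and 24 with everolimus, 13, 12 and 14 with SGI-1027, and 29, 24 and 27 with the combination. Every treated library was above every DMSO library, but MMP10 passed the filter on low counts only through the treated groups, so passing already required a difference. Its fitted log2 fold changes against DMSO were 3.41, 3.18 and 4.20, each resting on 4 DMSO counts in all. MMP13 (collagenase-3) had 28, 61 and 57 counts in DMSO and 77, 73 and 58 with everolimus. It had 15, 19 and 22 with SGI-1027 and 6, 10 and 12 with the combination. MMP13 fell by 1.36 on the log2 scale with SGI-1027 (SE 0.31, edgeR adjusted p = 0.00101) and by 2.36 with the combination (SE 0.35, edgeR adjusted p = 1.06e-05), while with everolimus the log2 fold change was 0.52 (edgeR adjusted p = 0.102). The combination thus held more counts than DMSO for MMP1, MMP3 and MMP10 and fewer for MMP7 and MMP13. MMP8, MMP12, MMP20 and MMP27 had at most 3 counts in any library.

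**Figure D2:**
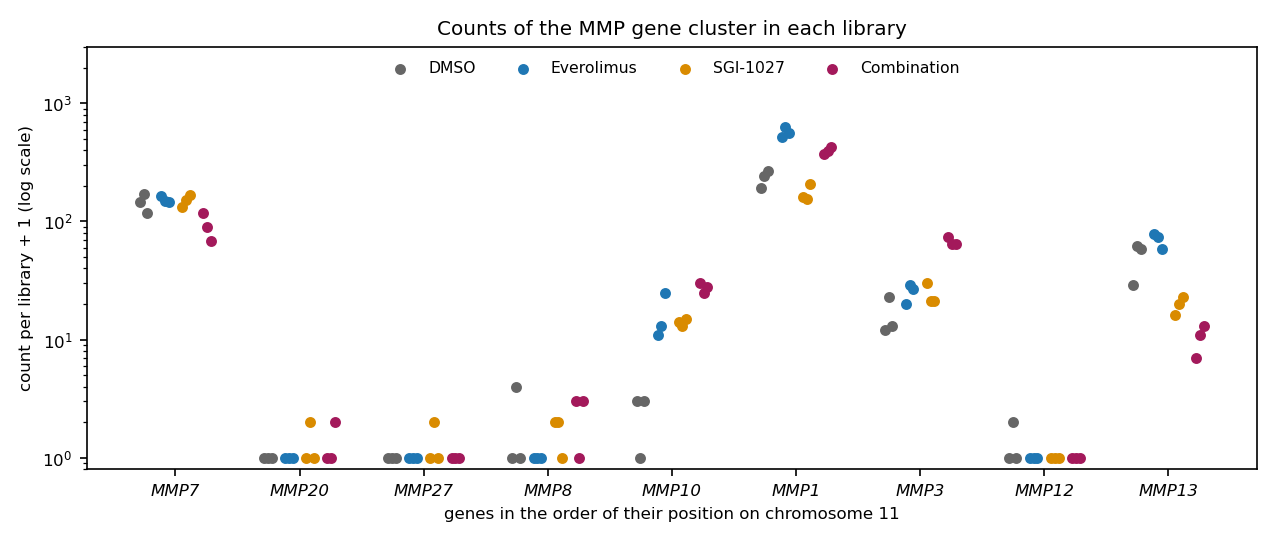
Counts per library plus 1 (vertical axis, logarithmic) for the MMP genes of the chromosome 11 cluster, placed in their order along the chromosome and evenly spaced. Each point is a library, coloured by group. The combination libraries are the highest for MMP3 and the lowest for MMP13, for MMP10 the lowest combination library ties the highest everolimus library at 24 counts, and MMP8, MMP12, MMP20 and MMP27 stay at 3 counts or fewer.

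MMP2, gelatinase A, degrades denatured collagen and type IV collagen and was the abundant gene with the largest change. Its FPKM was 118, 110 and 112 in DMSO, 180, 172 and 179 with everolimus, 207, 209 and 241 with SGI-1027, and 232, 231 and 237 with the combination. All treated libraries were above all DMSO libraries, and both groups given SGI-1027 were above everolimus alone. MMP2 rose 1.55-fold with everolimus (log2 fold change 0.63, SE 0.05, edgeR adjusted p = 7.67e-09), 1.93-fold with SGI-1027 (0.95, SE 0.05, edgeR adjusted p = 2.18e-11) and 2.03-fold with the combination (1.02, SE 0.05, edgeR adjusted p = 4.95e-12). The combination was 0.39 log2 units above everolimus alone (edgeR adjusted p = 5.90e-06). Against SGI-1027 alone the difference was 0.07 (95% confidence interval -0.03 to 0.18), which did not pass the test with all libraries. Without SGI-1027 library 3 it was 0.15 and passed (edgeR adjusted p = 0.00483).

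MMP9, gelatinase B, is best known from neutrophils and macrophages and was about as scarce as MMP1 and MMP7. Its FPKM was 3.10, 3.05 and 3.37 in DMSO, 5.01, 5.23 and 5.50 with everolimus, 3.38, 3.21 and 4.04 with SGI-1027, and 4.04, 4.13 and 4.54 with the combination. The everolimus libraries stood above all others, and the SGI-1027 libraries overlapped those of DMSO. MMP9 rose 1.65-fold with everolimus (log2 fold change 0.72, SE 0.10, edgeR adjusted p = 4.55e-06) and 1.32-fold with the combination (0.40, SE 0.10, edgeR adjusted p = 0.0016). With SGI-1027 the log2 fold change was 0.16 (95% confidence interval -0.05 to 0.37). The combination was lower than everolimus alone (log2 fold change -0.32, edgeR adjusted p = 0.00988), the same direction as for MMP1. Against SGI-1027 alone it gave 0.23 (edgeR adjusted p = 0.0995), and 0.34 without SGI-1027 library 3 (edgeR adjusted p = 0.0154).

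MMP14, the membrane-type MMP that activates pro-MMP2, changed little in size but in every treated group. Its FPKM was 168, 158 and 153 in DMSO, 185, 180 and 189 with everolimus, 187, 188 and 204 with SGI-1027, and 189, 191 and 195 with the combination. No treated library was as low as the highest DMSO library. The SGI-1027 libraries overlapped those of both other treatments, and the combination libraries were just above the everolimus libraries in FPKM, by less than the spread within either group. The log2 fold changes against DMSO were 0.21, 0.28 and 0.25 in that order (SE 0.04 for each), and all 3 passed (edgeR adjusted p = 0.000378, 1.41e-05 and 4.59e-05). Between the treated groups the differences were 0.04 for the combination against everolimus (95% confidence interval -0.05 to 0.13), -0.03 against SGI-1027 (-0.12 to 0.06) and 0.07 for SGI-1027 against everolimus (-0.02 to 0.16). None of these 3 passed.

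TIMP1, a secreted inhibitor of most MMPs, was the most abundant of the 9 genes in every group and rose with every treatment. Its FPKM was 185, 192 and 189 in DMSO, 234, 217 and 227 with everolimus, 231, 239 and 250 with SGI-1027, and 280, 286 and 272 with the combination. The combination libraries were above all single-drug libraries, which were above all DMSO libraries. The log2 fold changes against DMSO were 0.25, 0.34 and 0.54 (SE 0.04 for each, edgeR adjusted p = 6.63e-05, 1.56e-06 and 3.13e-09). The combination was 0.29 log2 units above everolimus (edgeR adjusted p = 2.52e-05) and 0.20 above SGI-1027 (edgeR adjusted p = 0.00249).

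TIMP2, the inhibitor that also links MMP14 to pro-MMP2, followed the same order of groups as MMP2. Its FPKM was 56.7, 52.1 and 52.9 in DMSO, 73.2, 71.5 and 69.6 with everolimus, 82.9, 85.6 and 96.8 with SGI-1027, and 90.4, 92.1 and 93.0 with the combination. Treated libraries were all above DMSO, and the SGI-1027 and combination libraries overlapped. The log2 fold changes against DMSO were 0.40, 0.72 and 0.75 (SE 0.05 for each, edgeR adjusted p = 2.54e-06, 1.09e-09 and 3.89e-10). The combination was 0.35 log2 units above everolimus (edgeR adjusted p = 2.15e-05), and its difference from SGI-1027 was 0.03 (95% confidence interval -0.07 to 0.14).

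TIMP3, the inhibitor that binds to the matrix and also blocks several ADAM proteases, was barely detected. Counts were 4, 8 and 5 in DMSO, 2, 2 and 1 with everolimus, 5, 4 and 5 with SGI-1027, and 0, 0 and 2 with the combination. The everolimus and combination libraries were all below the DMSO libraries, and the SGI-1027 libraries overlapped DMSO. Group sums were 17, 5, 14 and 2 counts. With the filter on low counts TIMP3 was left out and had no test. Without that filter its log2 fold changes were -1.69 with everolimus (SE 0.79, edgeR adjusted p = 0.0837), -0.28 with SGI-1027 (SE 0.65, edgeR adjusted p = 0.775) and -2.87 with the combination (SE 0.94, edgeR adjusted p = 0.00956), the last resting on 17 counts against 2. TIMP1 and TIMP3 lie in introns of SYN1 and SYN3 on the opposite strand, and those host genes had at most 3 and 4 counts in any library.

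Called changes of the 8 tested genes were mostly rises, against a background in which most tested genes changed in 1 direction or the other. With everolimus 6 of 8 rose (MMP1, MMP2, MMP9, MMP14, TIMP1, TIMP2) and 0 fell, while 27.2% of all tested genes rose and 29.2% fell. With SGI-1027 4 of 8 rose (MMP2, MMP14, TIMP1, TIMP2) and MMP1 fell, while 32.0% of all tested genes rose and 30.6% fell. With the combination 7 of 8 rose and MMP7 fell, while 32.8% rose and 33.4% fell overall. The median log2 fold change of the 8 genes was 0.52, 0.31 and 0.65 in these comparisons, beside 0.00, 0.02 and 0.01 over all tested genes. The 3 comparisons share the same DMSO libraries. At the study's cut-off (unadjusted p below 0.05 and a log2 fold change of 1 or more in size), the everolimus comparison kept 1 gene (MMP1), that of SGI-1027 kept 0 and that of the combination kept 2 (MMP2, MMP3), where 4.79%, 7.33% and 9.96% of all tested genes passed.

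The treated groups also differed among themselves. Against everolimus alone, the combination was higher for 4 of 8 genes (MMP2, MMP3, TIMP1, TIMP2) and lower for 3 (MMP1, MMP7, MMP9), where 20.1% of all tested genes were higher and 19.2% lower. If everolimus alone was given at 10 µM, as 1 label field states, this comparison does not hold the everolimus dose equal. The same applies to the values against everolimus given above for single genes. Against SGI-1027 alone, it was higher for 3 (MMP1, MMP3, TIMP1) and lower for 1 (MMP7), where 9.40% were higher and 10.2% lower. Without SGI-1027 library 3 it was higher for 5 (MMP2 and MMP9 added), and without combination library 3 it was lower for 0. The shares over all tested genes in those fits are not reported here, so these moves are not read as results about the 8 genes. Between the single drugs, SGI-1027 gave higher MMP2 (log2 difference 0.31) and TIMP2 (0.31) and lower MMP1 (-1.69) and MMP9 (-0.56) than everolimus. The background in that comparison was 13.0% higher and 9.51% lower.

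For several of the genes the log2 fold change of the combination lay below the single-drug changes added together. This was tested as an interaction, the log2 fold change of the combination minus the sum of those of the single drugs, all against DMSO. The interaction was below 0 and passed for 5 of 8 genes and was above 0 and passed for 0, where 22.1% of all tested genes were below and 23.6% above. MMP2 gave -0.56 (SE 0.07, edgeR adjusted p = 4.65e-06), its single-drug sum being 1.58 and its combination value 1.02. MMP9 gave -0.49 (SE 0.14, edgeR adjusted p = 0.00709), TIMP2 -0.37 (SE 0.07, edgeR adjusted p = 0.000399) and MMP14 -0.24 (SE 0.06, edgeR adjusted p = 0.00295). For these 4 genes the combination still lay above DMSO. MMP7 gave -0.81 (SE 0.26, edgeR adjusted p = 0.0164), with a sum of 0.16 against a combination value of -0.65. MMP1 (-0.13, 95% confidence interval -0.48 to 0.23) and TIMP1 (-0.05, -0.18 to 0.07) did not pass. MMP3 gave 0.82 (-0.05 to 1.69, edgeR adjusted p = 0.114), and it passed when FPKM were tested with limma. The study's methods give 5 µM for everolimus. If the dose of everolimus alone was 10 µM, as 1 label field states, these sums do not compare equal doses.

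**Figure D3:**
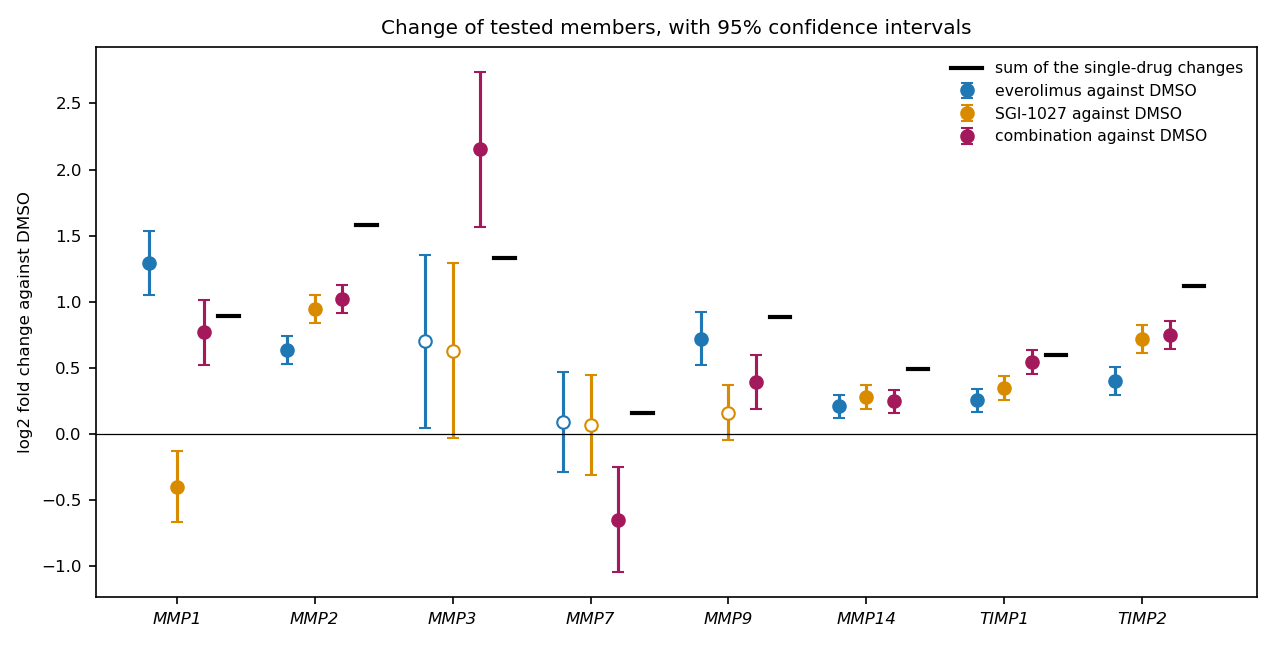
Log2 fold change against DMSO (vertical axis) of the 8 tested genes (everolimus, SGI-1027, combination), with 95% confidence intervals from the edgeR fit of 12 libraries. Filled points passed the adjusted p threshold of 0.05 and open points did not, and black bars mark the sum of the single-drug changes. The combination point lies under the bar for MMP2, MMP7, MMP9, MMP14 and TIMP2, whose interaction passed, and above it for MMP3, whose interaction did not.

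Both the enzyme and the inhibitor transcripts increased, so their ratio moved less than their sums. The summed FPKM of the 6 MMPs was 283 ± 11.2 (SD, n = 3) in DMSO, 378 ± 8.82 under everolimus, 422 ± 29.7 under SGI-1027 and 438 ± 6.43 in the combination group. The summed FPKM of the 3 TIMPs was 243 ± 1.14, 297 ± 9.39, 328 ± 16.6 and 371 ± 6.40. The MMP sum divided by the TIMP sum was 1.22, 1.14 and 1.13 in the DMSO libraries and 1.24, 1.27 and 1.30 with everolimus. It was 1.28, 1.25 and 1.32 with SGI-1027 and 1.17, 1.15 and 1.22 with the combination. Both single-drug groups were above DMSO without overlap, whereas the combination overlapped DMSO. No test was run on this ratio, and with CPM (counts scaled to library size, not to gene length) in place of FPKM the SGI-1027 libraries overlapped DMSO as well.

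MMP2 and MMP14 made up between 95.4% and 97.8% of the summed MMP FPKM in every library, so the sum says little of the scarce enzymes. Within that sum the share of MMP2 was 40.2% ± 0.548 in DMSO, 46.8% ± 0.366 under everolimus, 51.9% ± 0.814 under SGI-1027 and 53.3% ± 0.132 in the combination group. The MMP2 to MMP14 ratio went from 0.714 ± 0.0174 to 0.958 ± 0.0133, 1.13 ± 0.0401 and 1.22 ± 0.00879 in the same order. MMP2 relative to TIMP2 was 2.11 ± 0.0176 in DMSO and 2.48 ± 0.0856, 2.47 ± 0.0290 and 2.54 ± 0.0339 in the treated groups. All treated libraries were above DMSO, and the everolimus libraries overlapped those of both other treatments.

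**Figure D4:**
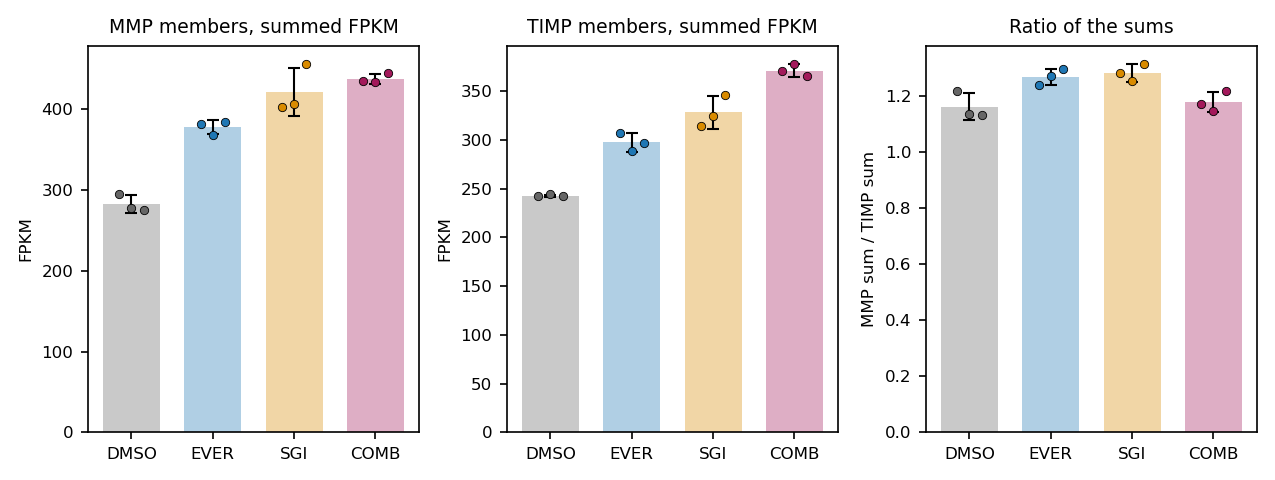
Summed FPKM of the 6 MMP genes (left), of the 3 TIMP genes (middle) and the ratio of the sums (right) in the 4 groups, DMSO, everolimus (EVER), SGI-1027 (SGI) and the combination (COMB), with axes starting at 0. Points are libraries, bars are means and error bars are the SD of 3 libraries. Both sums are lowest in DMSO and highest on average with the combination, and the ratio stays between 1.13 and 1.32.

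Of the 18 other MMP and TIMP genes in the table, 8 were tested. With everolimus 2 of these rose and 2 fell, with SGI-1027 5 rose and 2 fell, and with the combination 3 rose and 3 fell. Over all tested genes 27.2%, 32.0% and 32.8% rose and 29.2%, 30.6% and 33.4% fell. The everolimus and combination counts are near that background. MMP10 is counted among the rises in each comparison, although it passed the filter on low counts only through the treated groups. Passing already required a difference, so its rises do not bear on the comparison with that background. MMP15, a membrane-type MMP like MMP14, rose by 0.41 (everolimus), 0.75 (SGI-1027) and 0.87 (combination) on the log2 scale. MMP16, another membrane-type MMP, gave -0.29, -0.42 and -0.36, and all 3 passed. MMP17, which is anchored to the membrane by a lipid, gave 0.44 (edgeR adjusted p = 0.167), 1.02 and 1.13. MMP24, a membrane-type MMP best known from the nervous system, gave 0.00, 0.31 and -0.45, a rise with SGI-1027 and a fall with the combination. MMP19 rose by 0.43 with SGI-1027 only among the 3 comparisons, with values of -0.16 and -0.19 in the other two (edgeR adjusted p = 0.404 and 0.298). TIMP4 fell by 0.92 with everolimus, and its values were 0.01 with SGI-1027 and 0.57 with the combination (edgeR adjusted p = 0.975 and 0.0771).

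Of 8 tested genes that switch pro-MMPs on or restrain those activators, 3 rose and 2 fell with everolimus, 3 rose and 1 fell with SGI-1027, and 5 rose and 2 fell with the combination. The everolimus counts are near the background of 27.2% rising and 29.2% falling, beside 32.0% and 30.6% for SGI-1027 and 32.8% and 33.4% for the combination. PLAU, the urokinase that makes plasmin, had log2 fold changes of 0.39, 0.74 and 1.33 in the 3 comparisons against DMSO. PCSK5, a furin-like convertase, had -0.66, -0.85 and -1.27. All 6 of these values passed (largest edgeR adjusted p = 4.59e-06).

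Of 4 tested genes for other inhibitors and clearance receptors, 3 rose and 1 fell with each single drug, and 2 rose and 1 fell with the combination. LRP1, an endocytic receptor that clears several MMPs, had log2 fold changes of 0.79, 1.04 and 0.86. THBS1, a matrix protein that binds MMP2 and MMP9, had 0.66, 0.81 and 0.19, and TFPI2, a serine protease inhibitor, had -0.33, -0.38 and -0.14. Of 7 tested genes for inducers and docking partners, 4 rose and 1 fell with everolimus, 5 rose and 1 fell with SGI-1027, and 6 rose and 0 fell with the combination. LCN2, which forms a complex with MMP9, had 0.22, 1.51 and 1.72. ITGB3, part of the integrin that docks MMP2, had 0.81, 0.76 and 0.54, and BSG, the cell surface inducer of MMPs, had 0.30, 0.29 and 0.32. All of the values named for these 6 genes passed the edgeR test. These lists are short, and the shares over all tested genes were 27.2% rising and 29.2% falling for everolimus, 32.0% and 30.6% for SGI-1027, and 32.8% and 33.4% for the combination.

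Among 14 tested AP-1 and ETS transcription factors, which bind many MMP promoters, 5 rose and 4 fell with everolimus, 9 rose and 3 fell with SGI-1027, and 10 rose and 3 fell with the combination. The background was 27.2% rising and 29.2% falling for everolimus, to which the counts of these factors are close, 32.0% and 30.6% for SGI-1027, and 32.8% and 33.4% for the combination. ETV5 had log2 fold changes of 0.10 (edgeR adjusted p = 0.3), 1.02 and 1.81, and ETV4 had 0.49, 0.74 and 1.68. ETS2 had -0.81, -0.79 and -0.95. Of 4 tested cytokines known to induce MMPs, 1 rose with each single drug (TGFB2, 0.71 and 0.50), near the 27.2% and 32.0% of all tested genes. With the combination 0 rose and 3 fell, TGFB1 by 0.36, TNF by 0.30 and TGFB2 by 0.11, where 32.8% of all tested genes rose and 33.4% fell. IL1B, the other tested cytokine, passed in none of these comparisons.

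Of 14 tested ADAM and ADAMTS proteases, which are related to the MMPs, 10 rose and 1 fell with everolimus, where 27.2% of all tested genes rose and 29.2% fell. With SGI-1027 12 rose and 1 fell (32.0% and 30.6% of all), and with the combination 10 rose and 1 fell (32.8% and 33.4%). ADAM12 had log2 fold changes of 0.75, 0.99 and 1.08, and ADAMTS5, an aggrecanase, had 1.45, 1.49 and 1.57. ADAMTS13, which cuts von Willebrand factor, had 2.06, 2.45 and 2.47 from a low level of 33 to 50 counts in DMSO. Their median log2 fold changes were 0.31, 0.83 and 0.91, beside 0.00, 0.02 and 0.01 over all tested genes.

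The genes whose levels followed each MMP or TIMP most closely over the 12 libraries differed from member to member. Likeness was Pearson's r on log2 CPM over 11458 other genes, given as a description because the 12 libraries share 4 treatments. MMP2 was closest to LOXL2, a collagen cross-linking enzyme (r = 0.998), and to SPOCK1, a matrix proteoglycan (0.995), and SPOCK1 was also among the closest to TIMP2 (0.988, after FTL, 0.989). MMP1 was closest to P4HA1, a subunit of collagen prolyl hydroxylase (0.969), and to the receptor kinase AXL (0.919), and AXL was also closest to MMP9 (0.954, then CAMKK1, 0.933). MMP14 was closest to CYBA (0.994) and TNIP1 (0.992), and TIMP1 to SIGLEC15 (0.983) and HLA-B (0.981). MMP3 was closest to the interleukin receptor gene IL7R (0.975) and PIP4P1 (0.972), and MMP7 to NCKAP5 (0.926) and CCNA1 (0.920).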

How the data were processed

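Total RNA of 786-O cells was sequenced on 12 libraries in 4 treatment groups. The authors deposited 1 table of raw counts per gene and 1 table of FPKM per gene. The FPKM values equal the count divided by the library's total and by 1 length per gene. The aligner, counter and strand setting were not given in the sources used here, the labels list a mouse build beside human gene symbols, and the labels and the study's methods name different library kits, so no coordinates were taken from the files. The kit in the study's methods is a stranded one, but the strand setting of the counting was not given. Reads from the SYN3 intron that holds TIMP3 could therefore be counted as TIMP3. SYN3 itself had at most 4 counts per library, and SYN1, the host of TIMP1, had at most 3.

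Counts were tested with edgeR (version 4.0.16, R 4.3.3), using TMM factors, filterByExpr and the quasi-likelihood test in 1 fit of all libraries, and Benjamini-Hochberg adjustment over 12841 genes. An adjusted p under 0.05 was called, which is not the study's own cut-off. DESeq2 (1.42.0), limma (3.58.1) on log2 FPKM, other filters and factors, a replicate block and leaving out each library were alternatives. The code was tested on simulated counts. Same-numbered libraries did not deviate together (correlations from -0.176 to 0.0358), so the numbers were not treated as pairs. The genes and lists were chosen with earlier results of these data known. Of the other lists the 3 tested genes with the smallest p for the combination against DMSO were named, except that every tested other MMP or TIMP was named, and for each member the 2 genes of highest correlation among those with a mean of at least 50 counts. Some genes these rules name are not reported here.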

Additional observations from a re-analysis of the deposited data

Results flagged for a closer look

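For 5 genes the change with the combination differed from the sum of the single-drug changes, by the interaction test of edgeR's quasi-likelihood fit. The study's methods give 5 µM for everolimus. If everolimus alone was given at 10 µM, as 1 label field states, the sum does not compare equal doses. The interactions on the log2 scale were -0.56 for MMP2, -0.49 for MMP9, -0.37 for TIMP2, -0.24 for MMP14 and -0.81 for MMP7. All 5 were below 0, where 22.1% of all tested genes were called below 0. Each passed an adjusted p of 0.05 in all 12 fits that left out 1 library and under 8 other settings that gave an adjusted p, and 0 of the 5 reached the fold change of the study's cut-off. MMP7 lay closest to the threshold, with an adjusted p of up to 0.04999 in edgeR's test when 1 library was left out.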

How the results depend on the processing

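Over all alternatives and left-out libraries, 1150 log2 fold changes of the tested genes kept their side of the threshold, 15 passed only under the alternative, 3 were lost and 0 of the called values reversed. At the study's cut-off the counts of called genes fell to 1 (higher) with everolimus, to 0 in both directions with SGI-1027, and to 2 higher and 0 lower with the combination. In those comparisons 4.79%, 7.33% and 9.96% of all tested genes passed that cut-off. In the same way they fell to 1 higher and 0 lower for the combination against everolimus, to 0 lower against SGI-1027, to 0 higher and 1 lower for SGI-1027 against everolimus, and to 0 interactions below 0. Of all 12841 tested genes, 501, 211, 230 and 740 passed there in the same order, in either direction. Few calls among 8 genes are therefore not a result about these genes. Without a filter on low counts 2 genes were lower with the combination than with DMSO (MMP7, TIMP3). With limma on unfiltered log2(FPKM + 1), TIMP3 added a lower call with everolimus (1), the combination against DMSO (2) and against SGI-1027 (2). With limma the interaction of MMP3 above 0 passed under each of 3 settings (1 gene, log2 values 0.41 to 0.78), and a fold change on that scale understates low genes. MMP3 with everolimus against DMSO passed under 5 of 9 settings other than leaving out a library, and with SGI-1027 under 2 of 9. Leaving out 1 library moved the genes lower with SGI-1027 between 0 and 1, those higher with the combination than with SGI-1027 between 3 and 5, and those lower between 0 and 1. Shares over all tested genes in those fits are not reported here. The ratio of summed MMP to TIMP values was 3.08, 3.26, 3.17 and 3.03 with CPM for DMSO, everolimus, SGI-1027 and the combination, because that unit does not divide by gene length. A replicate block changed no call (for example against DMSO, the combination kept 7 higher genes, everolimus 6 and SGI-1027 4), and 1 of 12 libraries correlated best with its own number. Depth limited TIMP3, with at most 8 counts in a library, and MMP3, with at most 22 in DMSO.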
